A study of Homo sapiens with 30 samples.

Results

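RNA of 42 genes that make, guide and fold proteins at the endoplasmic reticulum (ER) was followed through 4 preparations of one human cell line. The genes were taken by symbol from a list of ER folding factors (11 genes), the translocon (9), signal peptidase (5), oligosaccharyltransferase (7), the signal recognition particle and its receptor (7), KDEL receptors (2) and MTDH. They are 42 of the 27630 genes in the deposited count tables, and all 42 passed the filter on low counts that left 16504 genes for testing. The question was whether these RNAs follow the label placed at the nuclear lamina, above both a nuclear and a cytosolic fraction.

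The cells were HEK293FT, a line derived from human embryonic kidney. All 8 libraries came from asynchronous cultures transfected by lipofection with a fusion of the peroxidase APEX2 and lamin B1, so the fractions carry the fusion too. The 4 groups of 2 libraries were a nuclear fraction, a cytosolic fraction, an APEX2 preparation without fixation, called native lamina here, and an APEX2 preparation fixed with paraformaldehyde (PFA), called PFA lamina. A library without label or without transfection is not among the samples used here. The labels do not say whether the 2 replicates of a group were separate cultures, so p-values measure the spread between these libraries, which may be technical. Lipofection need not reach every cell, and the share of cells that carried the fusion is not given.

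In a cell, the signal recognition particle binds a nascent signal peptide and brings its ribosome to the ER, where the SEC61 channel passes the chain across the membrane. Signal peptidase then removes the signal, oligosaccharyltransferase attaches N-glycans, and chaperones such as BiP (HSPA5) and calreticulin fold the product. The outer nuclear membrane is continuous with the ER and also carries ribosomes, while the lamina lines the inner nuclear membrane.

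Total counts ran from 2321291 in PFA lamina replicate 2 to 8557777 in native lamina replicate 1. The 42 genes together took 0.574% and 0.545% of counts in the nuclear pair, 0.494% and 0.407% in the cytosolic pair, 0.702% and 0.639% in the native pair and 0.557% and 0.451% in the PFA pair. The widest 95% Wilson interval, which covers counting error only, was 0.443 to 0.460% in PFA lamina replicate 2. The 11 folding genes alone took 0.342% and 0.313% in the nuclear pair and 0.198% and 0.173% in the cytosolic pair. They took 0.424% and 0.407% in the native pair and 0.271% and 0.227% in the PFA pair. LMNB1, the transfected gene, lay between 3231 and 6383 normalised CPM (counts scaled to library size) in the fractions and between 26168 and 96237 in the lamina libraries. The nuclear RNA MALAT1 read 10962 and 16522 CPM in the nuclear pair, 795 and 974 in the cytosolic pair, 5456 and 12246 in the native pair and 595 and 3079 in the PFA pair, so each APEX2 pair was unequal in this RNA. Summed CPM before TMM scaling of the 2 nuclear RNAs MALAT1 and NEAT1 were 12640 to 18750 (nuclear), 977 to 1040 (cytosolic), 6976 to 15150 (native) and 648 to 4479 (PFA), and those of the 3 cytosolic mRNAs GAPDH, ACTB and EEF1A1 were 802 to 1163, 4873 to 6566, 2302 to 2327 and 1814 to 2345 in the same order. Of the cell line markers, NEFL and NEFM were detected in every library, the erythroid genes HBG1 and HBG2 had 0 counts throughout and GATA1 0 to 10, and of the colon genes CDX2 had 60 to 313 counts in each library, KRT20 0 to 2 and LGALS4 0 to 9. PFA lamina replicate 1 was above replicate 2 for 39 of the 42 genes, with a median absolute log2 ratio of 0.78, against 0.26, 0.24 and 0.37 in the nuclear, cytosolic and native pairs.

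Levels are CPM after scaling by trimmed mean of M-values (TMM). They describe composition, since the total RNA of each preparation is unknown. In bulk libraries a lower value cannot be told apart between fewer cells holding an RNA and less RNA per cell. Divided by exonic length, calreticulin (CALR) was the most abundant of the 42 RNAs in all 4 groups, with mean CPM per kb of 282 (nuclear), 200.5 (cytosolic), 377 (native) and 235 (PFA). HSP90B1 (175), P4HB (163) and HSPA5 (145) followed in the nuclear fraction on the same scale, and the P4HB libraries overlapped with those of both neighbours. The lowest levels per kb were those of SEC62 in the nuclear fraction (5.25) and of the signal peptidase subunit SPCS2 in the other groups (1.70 to 2.61).

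Of the 11 ER folding genes, 5 rose in the nuclear against the cytosolic fraction in the edgeR quasi-likelihood test with Benjamini-Hochberg adjustment over all genes, the source of every adjusted p given here unless DESeq2 is named. None fell, and 10 had a positive log2 fold change, with a median of 0.68. Over all genes tested, 26.1% were called higher and 21.2% lower and the median was 0.13. HSPA5 encodes BiP, the lumenal HSP70 chaperone, and lies at chr9:127997127-128003666 on hg19. It read 613 and 535 CPM in the nuclear pair, 227 and 262 in the cytosolic pair, 462 and 428 in the native pair and 261 and 199.8 in the PFA pair. Both nuclear libraries were above all 6 others, and both native libraries stood between the fractions (nuclear against cytosolic, log2 fold change 1.23, SE 0.29, adjusted p = 0.00504). HSP90B1 (GRP94, the lumenal HSP90, chr12:104324112-104341708) read 493 and 508 CPM in the nuclear pair, 126 and 213 in the cytosolic pair, 609 and 660.1 in the native pair and 334 and 193 in the PFA pair. The native libraries were the highest and the cytosolic and PFA libraries overlapped, with a nuclear-to-cytosolic log2 fold change of 1.56 (SE 0.36, adjusted p = 0.00383). HSP90B1 shares 131 exonic bases with MIR3652, and its reads and those of its pseudogene HSP90B2P may not be separable in these counts.

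PDIA3 (ERp57, a disulphide isomerase for glycoproteins, chr15:44038590-44064804) read 167 and 148 CPM in the nuclear pair, 64.2 and 59.4 in the cytosolic pair, 89.5 and 102 in the native pair and 67.3 and 73.2 in the PFA pair. The nuclear libraries were the highest and the native ones next, with the PFA and cytosolic libraries below them, and the nuclear-to-cytosolic log2 fold change was 1.35 (SE 0.26, adjusted p = 0.00183). Reads of the copy PDIA3P1 could be split with it. HYOU1, an HSP70-related chaperone that exchanges nucleotide on BiP, read 288 and 172 CPM in the nuclear pair, 108 and 82.7 in the cytosolic pair, 180.2 and 153 in the native pair and 167 and 136 in the PFA pair. Its nuclear libraries lay above both cytosolic ones and its nuclear replicates were far apart (log2 fold change 1.27, SE 0.32, adjusted p = 0.00641). PDIA4, another disulphide isomerase, was the fifth of the folding genes that rose (1.01, SE 0.30, adjusted p = 0.0142).

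The lectin chaperones and P4HB did not pass the test between the fractions. Calreticulin, which holds new glycoproteins in the lumen, read 505 and 572 CPM in the nuclear pair, 418 and 349 in the cytosolic pair, 732 and 710.2 in the native pair and 545 and 354 in the PFA pair. Its nuclear libraries were above the cytosolic ones by less than the test required (0.49, SE 0.31, adjusted p = 0.210), and its native libraries were above every other library. Calnexin (CANX), its membrane-bound relative, read 524 and 573 CPM in the nuclear pair, 313 and 397 in the cytosolic pair, 584 and 607 in the native pair and 595 and 307 in the PFA pair. The groups did not overlap between the fractions (0.63, SE 0.34, adjusted p = 0.147), while the PFA pair ran from below the cytosolic libraries to the native level. P4HB, the abundant disulphide isomerase PDI, read 347 and 494 CPM in the nuclear pair, 295 and 361 in the cytosolic pair, 548 and 468 in the native pair and 456 and 363 in the PFA pair. Its fractions overlapped (0.36, SE 0.31, adjusted p = 0.353).

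Of the 42 genes, 36 had an entry in the RefSeq promoter table (GRCh38.p14, 250 bases before to 50 after the start). The ER stress element is the textbook promoter element of ER chaperone genes, read by ATF6 and XBP1 on folding stress, and is written CCAAT, then 9 bases of any kind, then CCACG. It was searched on both strands and was present in 5 of these 36 windows (13.9%), all of them folding genes, against 25 of 27305 gene symbols in the table (0.0916%). The part CCACG alone was in 26 of the 36 (72.2%), against 42.1% of all windows. The 6 elements are shown because they mark the 5 folding genes that carry one, each with 10 flanking bases on both sides, 5′ to 3′ on the gene's strand, with CCAAT and CCACG (or their reverse complements) in capitals.
HSPA5, chr9:125241381-125241419: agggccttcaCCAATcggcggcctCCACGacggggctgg
HSP90B1, chr12:103930206-103930244: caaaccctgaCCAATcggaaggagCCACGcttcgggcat
HSP90B1, chr12:103930311-103930349: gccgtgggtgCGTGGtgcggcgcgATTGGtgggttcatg
CALR, chr19:12938374-12938412: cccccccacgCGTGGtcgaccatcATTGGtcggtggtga
CANX, chr5:179698768-179698806: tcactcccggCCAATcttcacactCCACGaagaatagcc
PDIA6, chr2:10812843-10812881: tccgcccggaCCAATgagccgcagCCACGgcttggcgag
The HSPA5 and PDIA6 genes are on the minus strand of the genome, and the element runs opposite to the gene in CALR and in the second HSP90B1 copy. Among the 5 genes with an element, 2 were called higher in the nuclear fraction (HSPA5 and HSP90B1) and none lower, with a median log2 fold change of 0.63. Among the 31 with a window but no element, 5 were called higher and 9 lower, with a median of -0.53. Of all genes tested, 26.1% were called higher and 21.2% lower. All 5 genes with an element are folding genes and most of the 31 are not, so these medians also compare roles. Of the folding genes without an element, HYOU1 (1.27) and PDIA4 (1.01) were called higher and none was called lower. A match of letters is a description of the window and says nothing of binding.

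**Figure D1:**
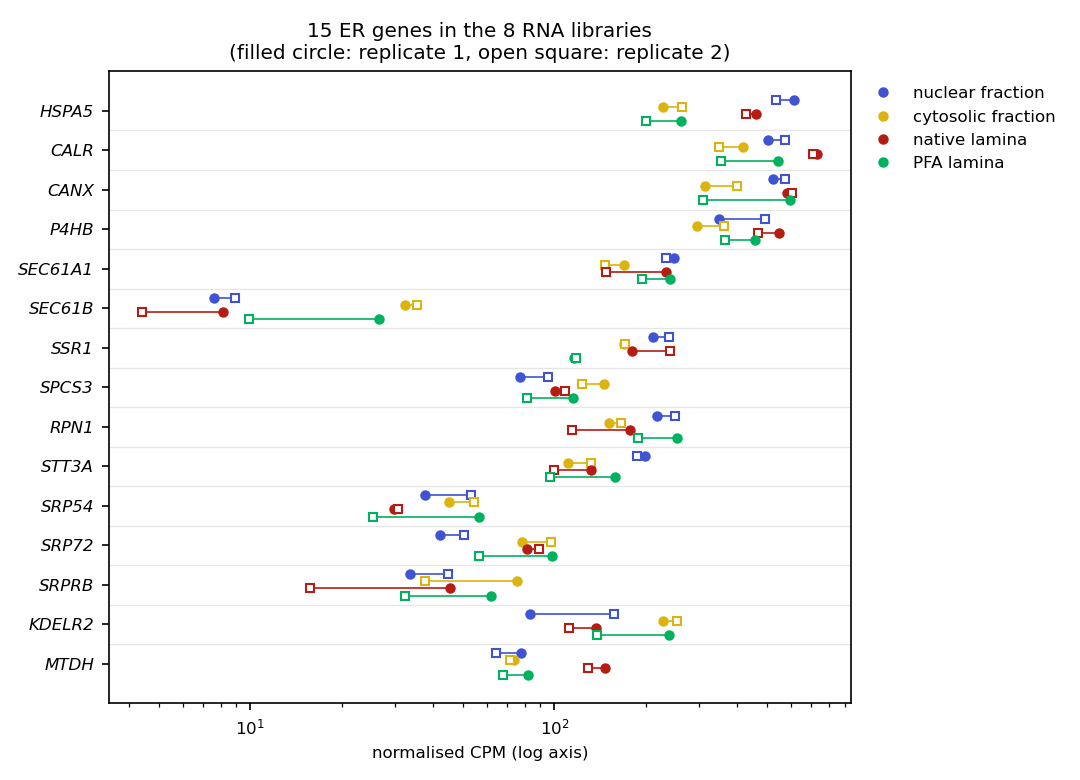
Normalised CPM on a log axis for the 15 genes whose values are given whatever their change. Each row is a gene, colours are the 4 groups, filled circles are replicate 1 and open squares replicate 2; the native values of CALR (732 and 710.2) and MTDH (147 and 129) lie to the right of every other library, and the SEC61B values split into a nuclear and native set under 10 and a cytosolic pair above 30.

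Translocon genes were called both ways between the fractions. Of 9 genes, SEC63 rose in the nuclear fraction and SEC61B, SEC61G and SSR4 fell, with a median log2 fold change of -0.74. Of all genes tested, 26.1% were called higher and 21.2% lower. SEC61A1, the channel-forming subunit, read 247 and 232 CPM in the nuclear pair, 169 and 147 in the cytosolic pair, 233 and 148 in the native pair and 240.4 and 194 in the PFA pair. Its fractions did not overlap and the test did not call it (0.60, SE 0.30, adjusted p = 0.115). SEC61B, the beta subunit, read 7.63 and 8.93 CPM in the nuclear pair, 32.4 and 35.3 in the cytosolic pair, 8.11 and 4.42 in the native pair and 26.4 and 9.93 in the PFA pair. The native libraries thus sat at or below the nuclear level and the cytosolic libraries above all others (nuclear against cytosolic, -2.03, SE 0.45, adjusted p = 0.00324). SEC61G, the gamma subunit, read 7.31 and 13.6 CPM in the nuclear pair, 38.0 and 34.7 in the cytosolic pair, 4.26 and 5.75 in the native pair and 14.4 and 1.84 in the PFA pair. It was highest in the cytosolic libraries, and its PFA replicates were further apart than those of any of the other 41 genes (-1.80, SE 0.57, adjusted p = 0.0196).

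SEC63, which couples BiP to the channel, had a nuclear-to-cytosolic log2 fold change of 1.11 (SE 0.32, adjusted p = 0.0119). SSR1, the alpha subunit of the translocon-associated complex TRAP, read 211 and 239 CPM in the nuclear pair, 169 and 171 in the cytosolic pair, 180.4 and 240.5 in the native pair and 116 and 118 in the PFA pair. Both PFA libraries were below the 6 others, and the fractions did not overlap (0.40, SE 0.27, adjusted p = 0.239). Its partner SSR4, the delta subunit, fell in the nuclear fraction (-1.58, SE 0.44, adjusted p = 0.0106). SSR4 shares 89 exonic bases with IDH3G on the opposite strand, and without strand the reads of both cannot be told apart there.

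Signal peptidase genes (1 higher and 1 lower of 5) and oligosaccharyltransferase genes (2 and 2 of 7) were also called both ways. The shares over all genes were 26.1% higher and 21.2% lower. SPCS3, a subunit of signal peptidase, read 77.3 and 95.5 CPM in the nuclear pair, 145 and 123 in the cytosolic pair, 100.4 and 108 in the native pair and 115 and 81.3 in the PFA pair, and was not called between the fractions (-0.63, SE 0.28, adjusted p = 0.0782). SPCS2 read 15.4 and 16.2 CPM in the nuclear pair, 8.42 and 5.71 in the cytosolic pair, 3.33 and 5.89 in the native pair and 4.99 and 6.62 in the PFA pair. Only its nuclear libraries were above 10 CPM (1.14, SE 0.44, adjusted p = 0.0451), and SPCS1 fell in the same comparison (-1.45, SE 0.39, adjusted p = 0.00969). The SPCS2 call was lost with total-count scaling, without the filter and in the DESeq2 Wald test, and in each fit without 1 library of the fractions (adjusted p between 0.0774 and 0.227). Exonic bases on opposite strands are shared by SPCS1 and GLT8D1 (243 bases), RPN2 and MROH8 (147) and SEC61A1 and RUVBL1 (161), so the counts of these 3 genes may hold reads of their neighbours. The same holds for PDIA6, which shares 936 bases with ATP6V1C2 on the opposite strand, and for DDOST, which shares 427 with PINK1-AS. Among the 7 oligosaccharyltransferase genes, RPN2 (0.99, SE 0.32, adjusted p = 0.0232) and the catalytic subunit STT3B (0.89, SE 0.33, adjusted p = 0.0380) rose in the nuclear fraction, and the small subunits DAD1 and KRTCAP2 fell. DAD1 read 20.9 and 24.7 CPM in the nuclear pair, 69.0 and 69.6 in the cytosolic pair, 17.9 and 7.07 in the native pair and 54.9 and 20.2 in the PFA pair. Both native libraries were below all 4 fraction libraries (nuclear against cytosolic, -1.60, SE 0.45, adjusted p = 0.0115). RPN1, ribophorin I, read 217 and 249.8 CPM in the nuclear pair, 151 and 166 in the cytosolic pair, 177 and 114 in the native pair and 253 and 188 in the PFA pair. STT3A, the other catalytic subunit, read 199 and 187 CPM in the nuclear pair, 111 and 132 in the cytosolic pair, 132 and 99.9 in the native pair and 158 and 96.7 in the PFA pair. Both lay above the cytosolic libraries in the nuclear fraction without a call (adjusted p = 0.145 and 0.0872).

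Of 6 measured subunits of the signal recognition particle, 4 (SRP9, SRP14, SRP68 and SRP72) fell in the nuclear fraction and none rose. Over all genes, 21.2% were called lower and 26.1% higher. SRP14, which with SRP9 forms the part that slows translation, read 16.5 and 20.4 CPM in the nuclear pair, 115 and 124 in the cytosolic pair, 40.1 and 69.5 in the native pair and 80.8 and 26.5 in the PFA pair. All 4 lamina libraries fell between the fractions, and SRP14 had the most negative nuclear-to-cytosolic value of the 42 genes (-2.69, SE 0.45, adjusted p = 0.000988). SRP72 read 42.02 and 50.5 CPM in the nuclear pair, 78.3 and 97.7 in the cytosolic pair, 81.6 and 89.0 in the native pair and 98.5 and 56.7 in the PFA pair. Here the native libraries lay within the cytosolic range (nuclear against cytosolic, -0.93, SE 0.31, adjusted p = 0.0250). SRP54, the GTPase that binds the signal peptide, read 37.7 and 53.3 CPM in the nuclear pair, 45.1 and 54.3 in the cytosolic pair, 29.7 and 30.5 in the native pair and 56.7 and 25.4 in the PFA pair, with overlapping fractions. SRPRB, the membrane subunit of the receptor, read 33.5 and 44.8 CPM in the nuclear pair, 75.1 and 37.6 in the cytosolic pair, 45.4 and 15.8 in the native pair and 61.9 and 32.4 in the PFA pair, again with overlap. KDELR2, which returns escaped lumenal proteins from the Golgi, read 83.0 and 157 CPM in the nuclear pair, 227 and 252 in the cytosolic pair, 137 and 111 in the native pair and 239 and 138 in the PFA pair. It fell in the nuclear fraction (-0.998, SE 0.36, adjusted p = 0.0343), a call lost with upper-quartile scaling (adjusted p = 0.0791) and in 3 of the 4 fits without 1 library of the fractions. Its value was -0.61 without nuclear replicate 1 and -1.55, still called, without nuclear replicate 2.

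In all, 9 of the 42 genes rose and 11 fell in the nuclear against the cytosolic fraction, where 26.1% and 21.2% of all genes did, and their median log2 fold change was -0.002. Both nuclear libraries were above both cytosolic ones in 17 genes and below them in 17, where 42.5% and 35.4% of all genes were. With upper-quartile scaling, 16 rose and 8 fell (5248 and 2519 of all 16504 genes), with KRTCAP2, SRP72 and KDELR2 no longer called, and the median of all genes moved from 0.13 to 0.40. In each of the 4 fits without 1 library of the fractions, fewer genes were called, both among the 42 and over all genes. SRP14, SRP68, SEC61B and PDIA3 were called in each of these 4 fits, and PDIA4, SPCS2, RPN2 and STT3B in none of them.

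**Figure D2:**
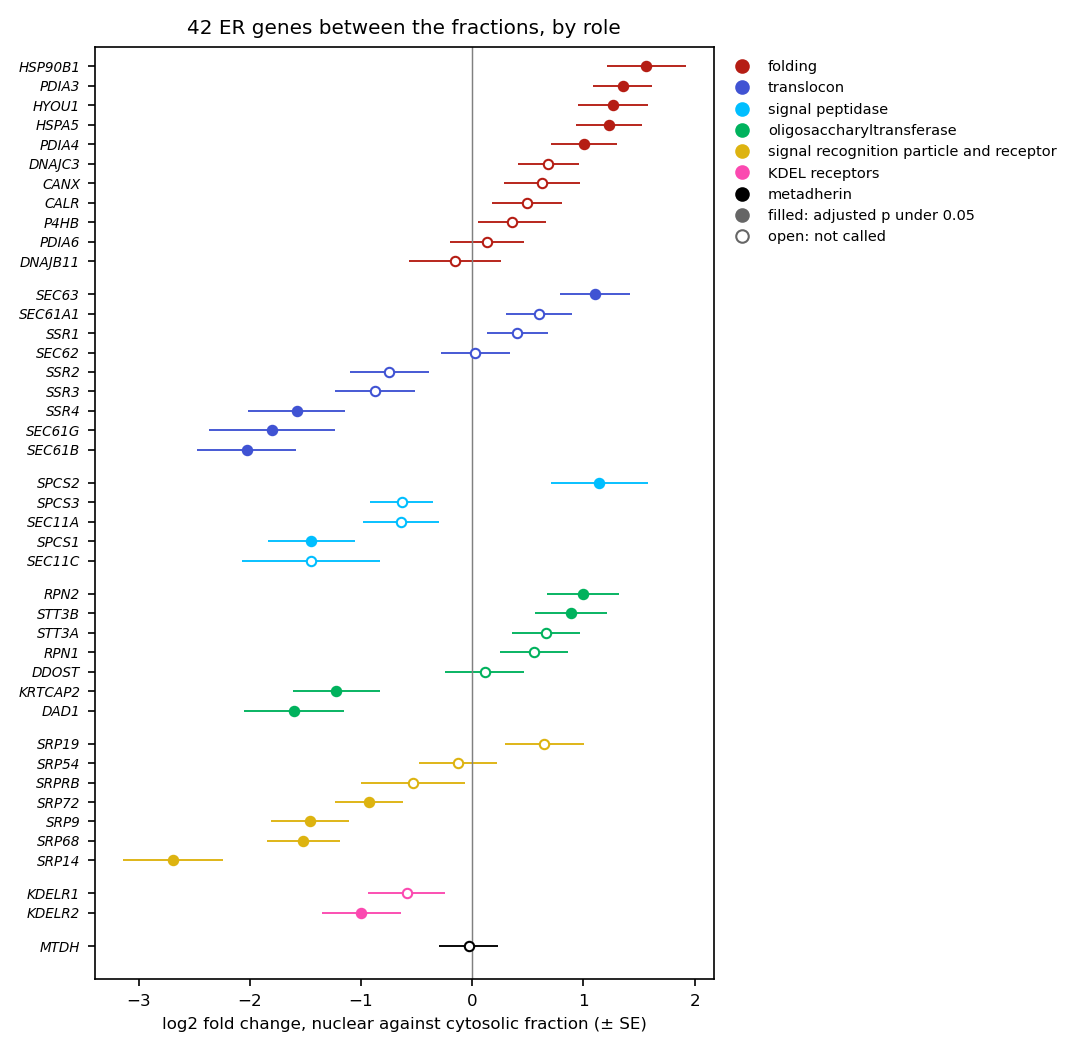
Log2 fold change of each of the 42 genes in the nuclear against the cytosolic fraction, with its SE as a bar, grouped by role. Filled points passed the adjusted p threshold of 0.05; 5 of 11 folding genes are filled to the right of 0, and 4 of 7 genes of the signal recognition particle and receptor are filled to the left.

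Chaperones of the cytosol were set beside those of the ER. Of 29 cytosolic chaperone genes, 27 fell in the nuclear fraction and none rose, with a median log2 fold change of -1.76. HSP90AA1, HSP90AB1 and HSPA8, the cytosolic relatives of HSP90B1 and HSPA5 and chosen after their values were seen, had values of -1.86, -2.14 and -1.72, where HSP90B1 had 1.56 and HSPA5 1.23. Of 15 mitochondrial import and chaperone genes, 12 fell and none rose (median -1.23). Other ER folding genes outside the 42 had 7 higher and 1 lower of 28 (median 0.27). Other glycosylation genes had 12 higher and 2 lower of 33 (median 0.65). ER-associated degradation genes had 3 higher and 3 lower of 17 (median 0.21). Genes of the unfolded protein response had 3 higher and 4 lower of 15 (median 0.22). Over all genes tested the shares were 26.1% higher and 21.2% lower (median 0.13). The ER membrane insertion genes, most of them subunits of the EMC complex or factors of the tail-anchor route, had 1 higher and 7 lower of 15 (median -0.90).

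**Figure D3:**
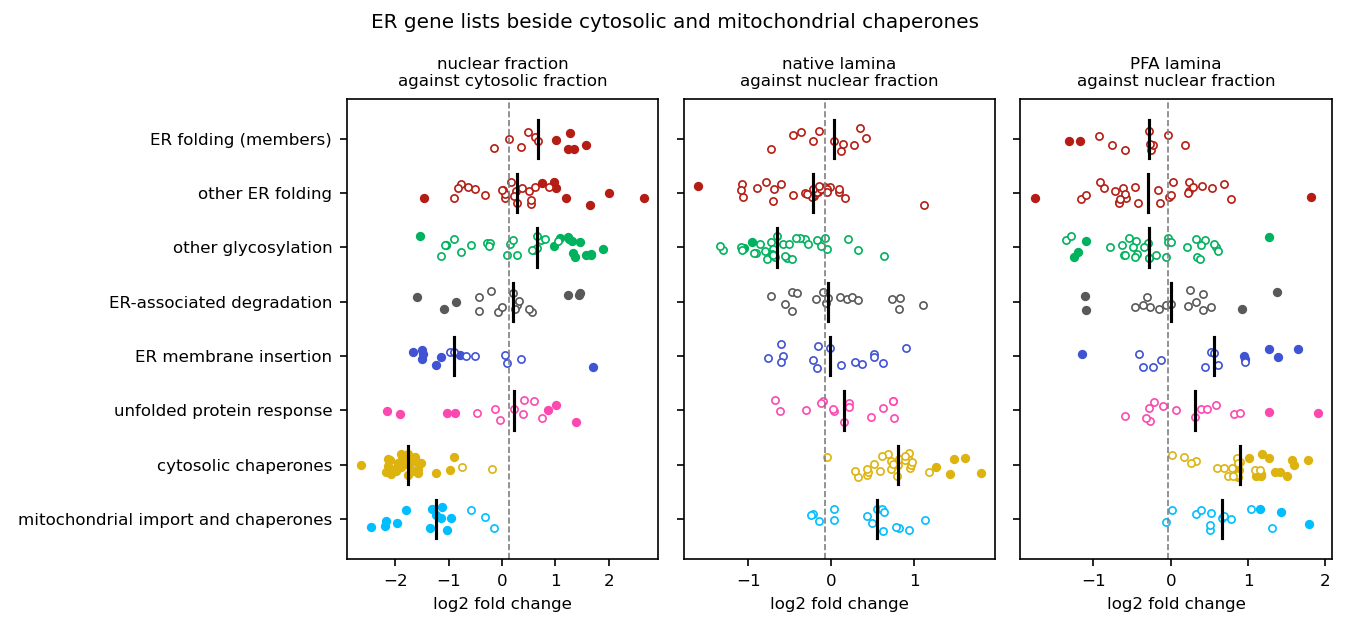
Log2 fold changes of the 11 ER folding members and of 7 other gene lists in 3 comparisons, 1 point per gene, filled where the adjusted p was under 0.05; black bars are list medians and the dashed line is the median of all genes tested. In the nuclear against cytosolic panel the ER folding median is 0.68 and the cytosolic chaperone median is -1.76, and in the PFA lamina panel they are -0.28 and 0.90; all 3 panels share the nuclear libraries.

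At the native lamina, 3 of these RNAs were called against the nuclear fraction. SRP14 and MTDH rose and SPCS2 fell, 2 higher and 1 lower of 42, where 3.87% of all genes were called higher and 3.44% lower. MTDH encodes metadherin, an ER and nuclear envelope membrane protein that binds RNA. It read 77.8 and 64.3 CPM in the nuclear pair, 73.8 and 71.5 in the cytosolic pair, 147 and 129 in the native pair and 82.0 and 67.7 in the PFA pair. Both native libraries were above the 6 others, which overlapped among themselves (native against nuclear, 0.96, SE 0.27, adjusted p = 0.0471). The native value of SRP14 was above the nuclear one (1.57, SE 0.44, adjusted p = 0.0473) and that of SPCS2 below it (-1.79, SE 0.45, adjusted p = 0.0343). SRP68 (0.77, adjusted p = 0.140) and SRP72 (0.88, adjusted p = 0.0845) had positive values that did not pass. Both native libraries were above both nuclear ones in 9 genes and below them in 12 (28.2% and 35.1% of all genes). The median of the 42 genes was -0.19, with 26 values negative, against -0.07 over all genes. The 11 folding genes had a median of 0.03, none was called, and the median was -0.12 with upper-quartile scaling. HSPA5 (-0.37, adjusted p = 0.425) and PDIA3 (-0.72, adjusted p = 0.0906) were below the nuclear libraries and CALR (0.42, adjusted p = 0.395) and HSP90B1 (0.34, adjusted p = 0.546) above them, none of them past the threshold. Of the 29 cytosolic chaperones, 5 rose and none fell in this comparison, with a median of 0.80, and the 3 cytosolic mRNAs summed to 2302 to 2327 CPM against 802 to 1163, whose part in the result was not tested. All 3 calls were lost when any 1 of the 4 nuclear or native libraries was left out, where fewer of all genes were called too. Scaling by total counts gave 4 higher and 0 lower (1656 and 237 of all 16504 genes). Upper-quartile scaling gave 0 higher and 1 lower (412 and 652 of all genes).

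Against the cytosolic fraction, the native lamina was higher in HSP90B1 and MTDH and lower in 8 other genes. These were SEC61B, SEC61G, SSR2, SSR4, SPCS1, DAD1, KRTCAP2 and SRP9, so that 2 of 42 rose and 8 fell, against 6.99% and 6.77% of all genes. HSP90B1 had a log2 fold change of 1.91 (SE 0.36, adjusted p = 0.00835) and MTDH of 0.92 (SE 0.27, adjusted p = 0.0366). SEC61G had -2.87 (SE 0.59, adjusted p = 0.0108), DAD1 -2.45 (SE 0.46, adjusted p = 0.00836) and SEC61B -2.41 (SE 0.45, adjusted p = 0.00788). The median of the 42 genes was -0.12, with 25 values negative, against 0.10 over all genes. Both native libraries were above both cytosolic ones in 13 genes and below them in 18 (35.8% and 28.4% of all genes). The folding genes had a median of 0.79, and 9 of the 11 were among those 13. CALR (0.91, adjusted p = 0.0685), HSPA5 (0.86, adjusted p = 0.0645), DNAJC3 (0.82, adjusted p = 0.0615) and SEC63 (0.95, adjusted p = 0.0589) missed the threshold. The cytosolic chaperones had a median of -1.01 with 11 of 29 lower. SRP14 had -1.12 here (SE 0.42, adjusted p = 0.0861), so its native value was between the fractions. Total-count scaling, which moved the median of all genes from 0.10 to 0.39, gave 10 higher and 7 lower (1646 and 581 of all 16504 genes). Upper-quartile scaling gave 7 and 7 (1445 and 945 of all genes), with CALR and HSPA5 among the genes gained under both. Without any 1 of the cytosolic or native libraries fewer genes were called, both among the 42 and over all genes. DAD1 moved to -3.29 without native replicate 1.

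MTDH was the only one of the 42 genes called above both fractions at the native lamina, where 0.0424% of all genes (7 of 16504) were, and none was at the PFA lamina, where 0.0485% were. None was called below both at the native (0.164% of all genes) or the PFA lamina (0.00606%). Its place among those 7 genes was known from an earlier look at these data and is no independent support. The call above both was lost when any of the 6 libraries compared was left out (adjusted p between 0.135 and 0.248 against the nuclear fraction and between 0.119 and 0.184 against the cytosolic fraction) and with upper-quartile scaling. Without a call, both native libraries stood above all 4 fraction libraries in 5 of the 42 genes, namely HSP90B1, CALR, CANX, DNAJC3 and MTDH (11.9%, against 7.19% of all genes). Both stood below all 4 in SEC61G, DAD1, SRP19, SRP54 and KDELR1 (11.9%, against 6.41%). At the PFA lamina none stood above all 4 (6.7% of all genes did), and SSR1 alone stood below (2.38%, against 4.65%).

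**Figure D4:**
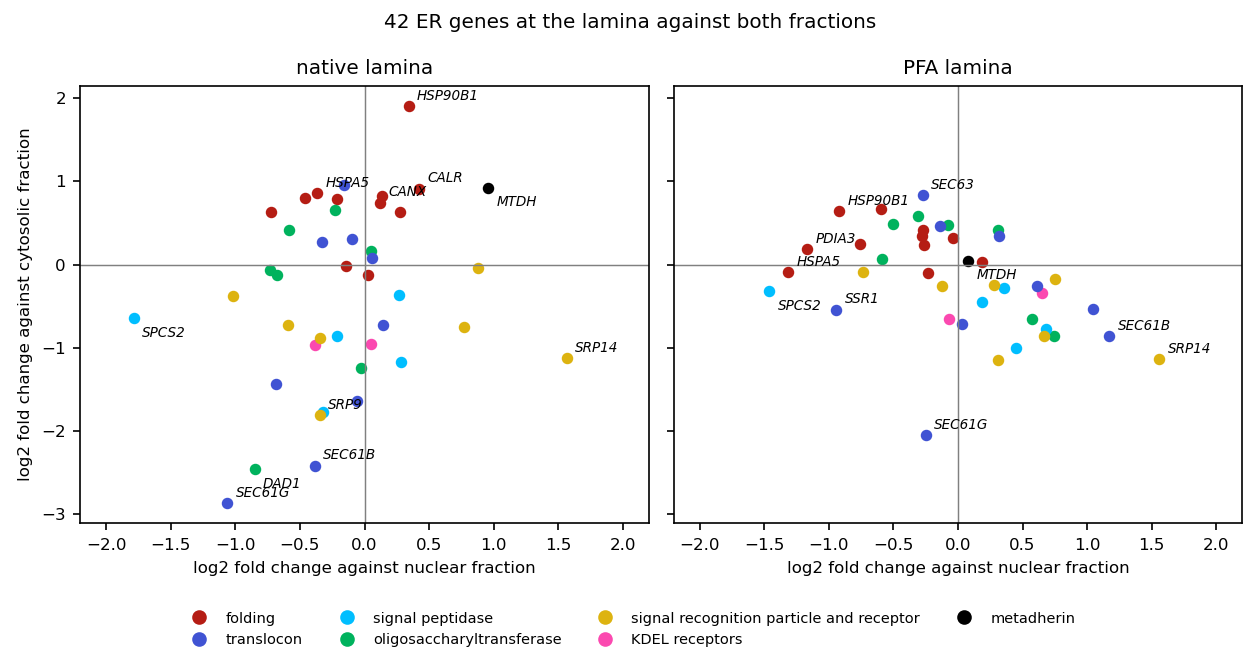
Log2 fold change of the 42 genes at the native lamina (left) and PFA lamina (right), against the nuclear fraction on the horizontal and the cytosolic fraction on the vertical axis, coloured by role. Points above and right of 0 are higher than both fraction means; MTDH stands at 0.96 and 0.92 on the left, and SRP14 is higher than the nuclear and lower than the cytosolic fraction in both panels. The panels share the fraction libraries, so their likeness is no independent result.

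At the PFA lamina the BiP and ERp57 RNAs were lower than in the nuclear fraction. HSPA5 (-1.32, SE 0.30, adjusted p = 0.0142), PDIA3 (-1.17, SE 0.26, adjusted p = 0.0142), SPCS2 (-1.46, SE 0.46, adjusted p = 0.0439) and SSR1 (-0.94, SE 0.28, adjusted p = 0.0354) fell and SRP14 rose (1.56, SE 0.44, adjusted p = 0.0305), 1 higher and 4 lower of 42. Over all genes, 9.63% were called higher and 7.81% lower. HSP90B1 was also lower in both PFA libraries without a call (-0.92, SE 0.35, adjusted p = 0.0816), and SEC61B higher (1.17, SE 0.45, adjusted p = 0.0838). Without PFA replicate 1 these values were -1.36 and 0.28 (adjusted p = 0.0536 and 0.776), and without PFA replicate 2 they were -0.57 and 1.69 (adjusted p = 0.249 and 0.00367). Both PFA libraries were above both nuclear ones in 3 genes and below them in 11 (30% and 32.2% of all genes). The folding median was -0.28, with 10 of 11 values negative, and 14 of 29 cytosolic chaperones rose with none lower (median 0.90). The summed nuclear RNAs were also lower in the PFA than in the nuclear pair (648 to 4479 against 12640 to 18750) and the summed cytosolic mRNAs higher (1814 to 2345 against 802 to 1163), and their part in these differences was not tested. A fit of the 4 PFA and nuclear libraries alone called 0 higher and 0 lower, where 355 and 249 of all 16205 genes were called. None of the HSPA5, PDIA3, SPCS2, SSR1 and SRP14 calls held in the fits without nuclear replicate 1 or 2. Without PFA replicate 1 only the HSPA5 call was kept, those of PDIA3, SPCS2, SSR1 and SRP14 were lost, and SRP14 dropped to 0.53. Without PFA replicate 2 all of them held, and more genes were called over all genes too. Total-count scaling gave 1 higher and 2 lower (1891 and 511 of all 16504 genes), and upper-quartile scaling 1 and 6 (1174 and 1604).

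Between the PFA lamina and the cytosolic fraction, edgeR called none of the 42 genes in either direction, where 0.527% of all genes were higher and 0.145% lower. Both PFA libraries were above both cytosolic ones in 8 genes and below them in 12 (25.2% and 23% of all genes). At an unadjusted p under 0.05 there were 6, a count not made over all genes. The Wald test of DESeq2 called 0 higher and 2 lower, and 551 and 449 of all 16504 genes. SEC61G had the smallest adjusted p (-2.05, SE 0.58, adjusted p = 0.0903), with the PFA replicate 2 value resting on few reads. Its value was -4.34 without PFA replicate 1 and -1.33 without PFA replicate 2. SRP9 (-1.15, adjusted p = 0.105), SRP14 (-1.13, adjusted p = 0.150, and -2.22 without PFA replicate 1) and SEC63 (0.84, adjusted p = 0.153, and 0.28 without PFA replicate 1) were further examples with libraries that did not overlap.

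The 2 lamina preparations were not separated by the test, which called 0 of 42 genes and 0% of all genes in each direction. Both PFA libraries were above both native ones in 5 genes and below them in 9 (19.9% and 18.7% of all genes). At an unadjusted p under 0.05 there were 8 of the 42, a count not made over all genes. The DESeq2 Wald test called 1 higher and 4 lower, and 72 and 181 of all 16504 genes. HSP90B1 (-1.26, SE 0.35), HSPA5 (-0.95, SE 0.29), CALR (-0.68, SE 0.31) and MTDH (-0.88, SE 0.27) were lower in both PFA than in both native libraries, with edgeR adjusted p of 0.313, 0.319, 0.448 and 0.316. DAD1 (1.60, SE 0.46) and SEC61B (1.56, SE 0.45) were higher in both, each with an adjusted p of 0.313. These last 2 values rested on PFA replicate 1, without which they were 0.66 and 0.63, and DAD1 was 2.43 without native replicate 1. Of the 11 folding genes, 10 were negative (median -0.41), against a median of 0.06 for all genes. Without PFA replicate 2, calls appeared over all genes as well as among the 42.

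The annotated exonic length of each gene was set beside these values. It need not be the length of the transcript made in these cells. Across the 42 genes, exonic length and the nuclear-to-cytosolic log2 fold change had a Spearman correlation of 0.600, and length and the native-to-cytosolic value one of 0.735, where the same over all 16504 genes gave 0.0665 and 0.218. The points share their libraries and, within a complex, their function, so these are descriptions. Of the 21 genes below the median length of 2843.5 bases, 2 rose and 8 fell in the nuclear fraction, and of the 21 above it 7 rose and 3 fell (26.1% and 21.2% of all genes). In the native against cytosolic comparison the shorter 21 had 0 higher and 8 lower and the longer 21 had 2 and 0 (6.99% and 6.77% of all genes). Within the translocon, SEC61G (466 bases) and the similarly short SEC61B had nuclear-to-cytosolic values of -1.80 and -2.03, while SEC61A1 (3636) and SEC63 (6500) had 0.60 and 1.11. SRP68 (3058 bases) and SRP72 (3876) fell in the nuclear fraction although long, and CALR (1911) had a positive value although short. For the PFA against native lamina the correlation was -0.678, against -0.335 over all genes. Against the nuclear fraction it was -0.457 for the PFA lamina (-0.0595 over all genes) and 0.246 for the native lamina (0.175). The PFA lamina against the cytosolic fraction had 0.595 (0.0454 over all genes).

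**Figure D5:**
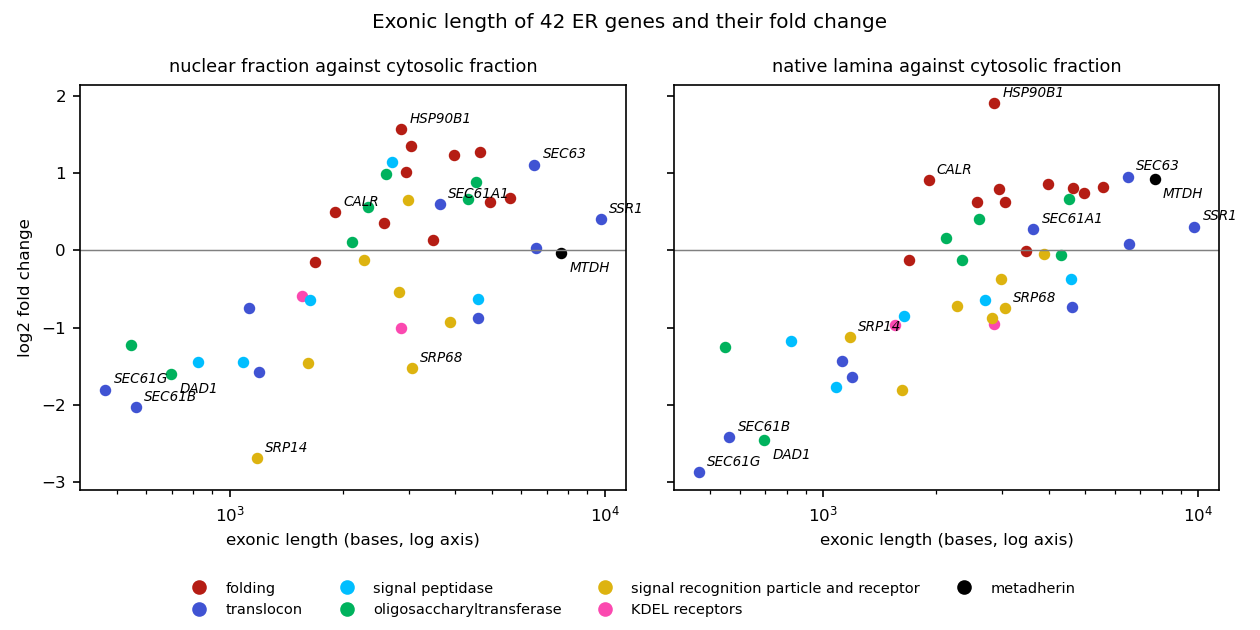
Log2 fold change against exonic length (log axis) for the 42 genes, in the nuclear (left) and native lamina (right) libraries against the cytosolic libraries, coloured by role. SEC61G, SEC61B and DAD1, all of short exonic length, lie between -2.87 and -1.60 in both panels. The similarly short KRTCAP2 lies at -1.22 and -1.25, and the rank correlations are 0.600 and 0.735.

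None of the 42 genes overlapped a lamina-associated domain by 1 base or more in the lists for G1, S or G2, where 2.37%, 2.0% and 3.44% of 16316 tested genes on a single chromosome did. These domains were mapped in HCT116, a colorectal carcinoma line, as 1 list per stage, so they do not give the place of the genes in HEK293FT. The nearest was SEC61G, 119940 bases from a domain in G1 and S and 19940 bases from one in G2.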

How the data were processed

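Read counts per gene were deposited for 8 HEK293FT RNA libraries. Per the file headers, the authors made these counts with featureCounts 1.5.2 on hg19 with RefFlat genes, without strand and with reads in overlapping genes counted for each. The submitters' processing notes name TopHat2 2.1.1 and Bowtie2 2.3.2, and the labels state Trizol extraction and ribosomal depletion. Trizol RNA and ribosomal depletion leave non-polyadenylated RNA in the libraries.

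The whole table was fitted with edgeR 4.0.16 in R 4.3.3: filterByExpr by group, TMM factors, 1 coefficient per group over all 8 libraries, the quasi-likelihood test for 6 contrasts, and Benjamini-Hochberg adjustment over 16504 genes, with a call at an adjusted p under 0.05. SE is the absolute log2 fold change divided by the square root of F. The code was tested on simulated data. The floor of 3 counts equals 0.351 to 1.29 CPM. Columns left unmapped numbered 0.

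Members and gene lists were chosen with earlier results of these data known. Values in each library are given for a fixed set of 15 members, for the 3 called members with the largest change each way per comparison, and for members called above both fractions, and other lists name 1 gene each way. Further names were picked with their values in view.

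The alternatives tried were size factors of DESeq2, total counts, upper-quartile factors, LMNB1 left out, no filter, the Wald test of DESeq2 1.42.0, a replicate block, only the 4 libraries compared, and each library left out. Deposited domain lists (intervals without scores) and RefSeq promoters (GRCh38.p14) were used for description only. ChIP and K562 samples were not analysed here, and 1 cell line marker is not reported here.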

Additional observations from a re-analysis of the deposited data

How the results depend on the processing

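With 2 libraries a group, most counts of called genes moved when a library was left out (a lone library is then assumed to vary like the other groups). Over the 8 such fits, genes called in the nuclear against the cytosolic fraction ran from 2 to 11 higher and 3 to 17 lower, native against nuclear 0 to 3 higher and 0 to 3 lower, native against cytosolic 0 to 7 and 0 to 14, PFA against nuclear 0 to 9 and 0 to 4, PFA against cytosolic 0 to 0 and 0 to 10, and PFA against native lamina 0 to 4 and 0 to 0. MTDH was called above both fractions at the native lamina only in the fits without a PFA library, and no member was at the PFA lamina. For the other alternatives, counts over all genes are given in brackets. Upper-quartile factors gave 16 higher for nuclear against cytosolic (5248 of 16504) and 0 for native against nuclear (412). They gave 7 higher for native against cytosolic (1445), and 0 members above both fractions at the native lamina. Total counts gave 4 higher and 0 lower for native against nuclear (1656 and 237). They gave 10 higher for native against cytosolic (1646) and 2 lower for PFA against nuclear (511). No filter gave 2 lower for native against nuclear (1469 of 23649) and 3 higher for PFA against nuclear (2024). It gave 4 lower for PFA against cytosolic (538), and 2 higher and 1 lower for PFA against native lamina (123 and 149). The DESeq2 Wald test gave 6 higher for native against cytosolic (1392 of 16504) and 2 lower for PFA against cytosolic (449). It gave 1 higher and 4 lower for PFA against native lamina (72 and 181). Fits of only the 4 libraries compared gave 4 higher and 2 lower for native against nuclear (2013 and 2355 of 16097). They gave 8 higher for native against cytosolic (1832 of 14948), and 0 higher and 0 lower for PFA against nuclear (355 and 249 of 16205). The labels give no batch, so the replicate numbers were not taken as pairs. Same-numbered libraries correlated between -0.067 and 0.321 in their deviations, with 0.280 between the fractions and 0.321 between the lamina preparations. Whether they were pairs was not tested. The replicate block gave 5 higher for native against cytosolic (1514 of 16504), and 10 higher and 12 lower for nuclear against cytosolic (4562 and 3771). The cause of these shifts was not tested. DESeq2 size factors and leaving out LMNB1 gave the same member counts as reported in all 6 comparisons. No direction of a named gene reversed under these alternatives. The depth of PFA lamina replicate 2, where 3 counts are 1.29 CPM, limits SEC61G and SEC11C most.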

Other observations

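Other genes of the secretory pathway, outside the 42, also differed between the preparations. ERO1B, an oxidase that recharges disulphide isomerases, read 65.4 and 83.8 CPM in the nuclear pair and 13.2 and 10.2 in the cytosolic (2.66, SE 0.36, edgeR adjusted p = 0.00059). It was lower than the nuclear fraction in the native (-1.61, adjusted p = 0.0220) and the PFA preparation (-1.76, adjusted p = 0.00994). The native call was lost in all 4 fits without 1 of the libraries compared (values -1.77 to -1.40). Its PFA call held in 1 of 4 such fits (values -2.32 to -1.29). EMC1, the large lumenal subunit of the EMC insertase, rose in the nuclear against the cytosolic fraction (1.70, SE 0.27, adjusted p = 0.000862) while the small subunit EMC6 fell (-1.66, SE 0.43, adjusted p = 0.00711). The PFA lamina against the same nuclear libraries gave -1.15 for EMC1 (adjusted p = 0.0166) and 1.65 for EMC6 (adjusted p = 0.0234), though neither was called in a fit of those 4 libraries alone. TMEM258, a small oligosaccharyltransferase subunit, was lower at the native lamina than in the cytosolic fraction (-2.41, SE 0.46, adjusted p = 0.00835), as DAD1 was.

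Among 15 genes of the unfolded protein response, ERN1 (the sensor IRE1) read 17.6 and 20.6 CPM in the nuclear pair, 7.22 and 7.40 in the cytosolic pair, 25.2 and 28.3 in the native pair and 18.8 and 29.1 in the PFA pair. It was higher than the cytosolic fraction in the native preparation (1.87, SE 0.34, adjusted p = 0.00759) and after PFA (1.69, SE 0.34, adjusted p = 0.0471). The call at the PFA lamina was lost with DESeq2 size factors and in a fit of those 4 libraries alone. ASNS, a target of ATF4, read 56.3 and 32.6 CPM in the nuclear pair and 295 and 100.2 in the cytosolic pair (-2.15, SE 0.47, adjusted p = 0.0031), and the value was -1.19 (adjusted p = 0.0539) without cytosolic replicate 1. TRIB3, another ATF4 target, rose at the PFA lamina against the nuclear fraction, from 11.5 and 9.45 to 39.2 and 39.4 CPM (1.90, SE 0.31, adjusted p = 0.00642).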
